A study of Homo sapiens with 8 samples.

Results

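The comparison described here is between C8161 cells that carry introduced ATF3 and C8161 cells with a neomycin control. It covers every gene that reached 1 RPKM, reads scaled to transcript length and sequencing depth, in at least 1 of the 2 C8161 columns of the authors' table. That rule kept 10941 of the 18478 genes listed. The difference of a gene is its log2(RPKM + 1) with ATF3 minus the same quantity in the control, and it is called the ratio below. C8161 and A2058 are established human melanoma lines. RNA-seq was done on total RNA from 8 libraries, 3 of C8161 with ATF3, 3 of the C8161 neomycin control and 1 for each arm of A2058. ATF3 was introduced by retrovirus, and all cells grew in DMEM with fetal bovine serum, penicillin and streptomycin and were given no other agent that the labels name. The labels do not state how the neomycin control was built, the promoter of the construct, whether the transduced cells were clones or pools, or whether the 3 libraries of an arm came from separate cultures.

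ATF3 is a basic leucine zipper protein of the ATF/CREB family that cells make at low level at rest and in large amounts after many kinds of stress, among them amino acid lack, misfolded protein in the endoplasmic reticulum (ER), DNA damage and cytokines. It binds DNA as a homodimer or paired with JUN, CEBP or other ATF proteins, at sites of the CRE and AP-1 type. It is best known as a repressor of its own gene and of inflammatory genes, and with JUN partners it can also activate. In tumours it has been described both as a brake on growth and as a driver of invasion, depending on the cell.

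The table holds 1 combined value per C8161 arm. There is therefore no spread between replicates for any gene, no test was possible, and each difference below describes 2 values. The columns summed to 472590 RPKM with ATF3 and 481302 RPKM in the control, and 10866 and 10868 genes reached 1 RPKM. The read depth behind them is unknown, so no counting interval can be given. In bulk RNA a lower value can come from fewer cells of a kind or from less RNA per cell, and these cannot be told apart.

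ATF3 itself (Entrez gene 467; GRCh38 chromosome 1, 212565407 to 212620777) was at 62.6 RPKM in the arm with introduced ATF3 and at 4.76 RPKM in the control, a 13.1-fold difference. Ranked by level among the 10941 genes, it stood at place 1277 with ATF3 and at place 8061 in the control. The arm that should carry ATF3 thus had the higher value. A value per gene does not separate RNA of the introduced copy from RNA of the cells' own gene. In A2058 the levels were 4.71 RPKM with ATF3 and 1.22 RPKM in the control.

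The melanoma label was checked against 21 markers of melanoma and the neural crest. In C8161, 14 of them lay under 1 RPKM in both columns, and TYR, PAX3 and EDNRB were listed at 0 in both. SOX10, the transcription factor that defines the melanocyte lineage, was at 0.05 RPKM with ATF3 and 0.06 in the control. PMEL, a melanosome fibre protein, was at 0.13 and 0.18 RPKM, and MITF, the regulator of pigment genes, was at 1.02 and 0.95 RPKM. In A2058 SOX10 was at 252.8 and 253.9 RPKM, and 20 of the 21 markers reached 1 RPKM there. The pigment cell programme was therefore near 0 in both C8161 arms. The receptor tyrosine kinase AXL was high in C8161, at 293.6 RPKM with ATF3 and 279.7 in the control, as was the intermediate filament vimentin (VIM), at 2933 and 2941 RPKM. MCAM, CSPG4, SOX9 and S100A1 were also above 1 RPKM in both arms. Markers of other cell types were summed: 14 endothelial markers came to 110.6 RPKM with ATF3 and 108.5 in the control, 8 fibroblast markers to 3.4 and 3.2, 7 keratinocyte markers to 167.8 and 163.1, and 7 leukocyte markers to 38.7 and 30.4. Within the endothelial sum CDH5 was at 18.1 RPKM with ATF3 and 8.86 in the control, whereas TIE1 (62.8 and 67.2 RPKM), ROBO4 (18.1 and 20.5) and EGFL7 (8.58 and 9.75) had the lower value with ATF3. The keratinocyte sum was mostly SFN (151.6 and 146.2 RPKM). The leukocyte sum, which had the higher value with ATF3, was nearly all CD68, a lysosomal protein at 37.58 and 29.03 RPKM, 92.6% of whose sequence is shared with another gene, while the pan-leukocyte marker PTPRC was at 0.25 and 0.24 RPKM. The part of other cell types in the results below was not tested.

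**Figure D1:**
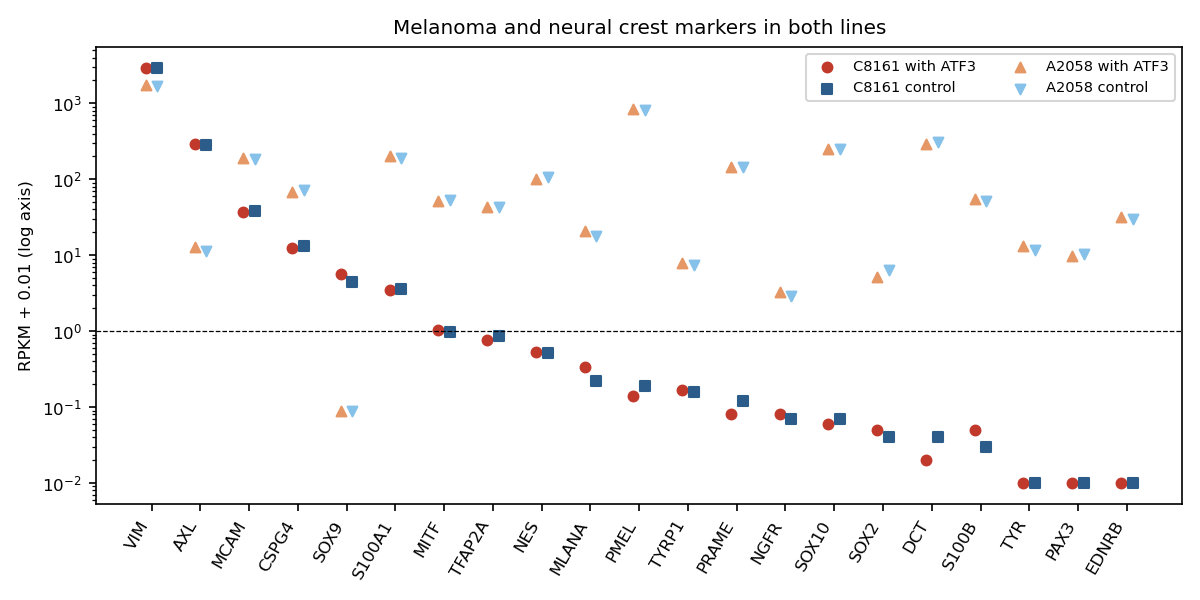
Levels of the 21 melanoma and neural crest markers, plotted as RPKM + 0.01 on a log axis, in the 2 C8161 columns and the 2 A2058 columns; the dashed line marks 1 RPKM. In C8161, 14 markers lie under the line in both columns, whereas AXL at 293.6 and 279.7 RPKM and VIM lie far above it.

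The C8161 columns were close to each other. The median ratio was 0.007 and the SD of the ratios across genes 0.137, and 6416 genes (58.6%) lay within 0.1 of 0. The central 95% of the ratios ran from −0.27 to 0.25. Above 0 lay 5694 genes, 52% of those compared, and below it 5175. At a size of 0.25 or more 282 genes were higher with ATF3 (2.58% of those compared) and 350 were lower (3.2%). At 0.5 or more 20 were higher (0.183%) and 10 lower (0.0914%). At 1 or more, 3 were higher (0.0274%) and 1 was lower (0.00914%). The minimum of 1 RPKM mattered little at its edge: 118 genes whose higher value lay from 1.0 to under 1.1 RPKM had a median ratio of −0.003, and 129 genes left out at 0.9 to under 1 RPKM had one of 0.023, with SDs of 0.117 and 0.12. Only 73 genes reached 1 RPKM with ATF3 alone and 75 in the control alone.

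**Figure D2:**
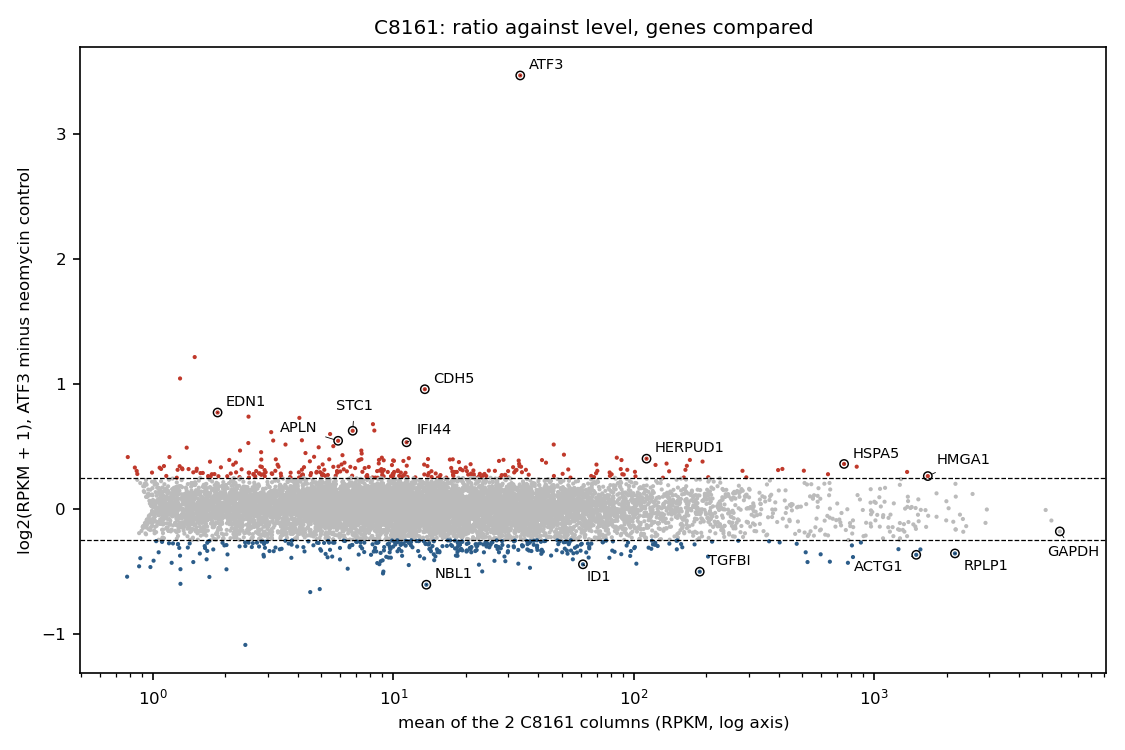
Each of the 10941 genes by its mean RPKM over both C8161 columns (log axis) and its ratio, log2(RPKM + 1) with ATF3 minus control; red and blue points lie past 0.25 (dashed lines). ATF3 stands alone at 3.46, CDH5 follows among the labelled genes at 0.96, and 58.6% of genes lie within 0.1 of 0.

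The 30 genes with the highest ratios at a mean of 5 RPKM or more, a set chosen by size alone and running down to a ratio of 0.38, included several secreted and cell surface proteins. CDH5, the adhesion molecule VE-cadherin of endothelial junctions, was at 18.1 RPKM with ATF3 and 8.86 in the control, a ratio of 0.96. STC1, the hormone stanniocalcin, had a ratio of 0.62. APLN (chromosome X, 129645259 to 129654956), which encodes apelin, the peptide ligand of a receptor on vessels and heart, was at 7.17 RPKM with ATF3 and 4.60 in the control, a ratio of 0.55. Both columns of these genes were well above the minimum of the comparison. MDK, the heparin-binding growth factor midkine, was at 37.7 and 28.6 RPKM, a ratio of 0.39 that was 0.53 once trends with GC content and transcript length were removed. EDN1, the vessel-constricting peptide endothelin, was named after its value was seen, since its mean lay under 5 RPKM: it was at 2.60 RPKM with ATF3 and 1.11 in the control, a ratio of 0.77. The tissue plasminogen activator gene PLAT and the gelatinase gene MMP2 also belonged to the 30, with ratios of 0.40 and 0.38.

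Others of the 30 act in signalling and in the nucleus. SOCS2 (chromosome 12, 93569969 to 93626236), a feedback inhibitor of cytokine and growth hormone receptors, was at 8.69 RPKM with ATF3 and 6.01 in the control (ratio 0.47). RGS4, which shortens signals from G protein-coupled receptors, was at 10.0 and 7.39 RPKM (0.39). Both genes were higher in the arm with ATF3. PNRC1, a nuclear receptor coactivator, was at 11.4 and 8.50 RPKM, and HCFC1R1, which binds the cofactor HCFC1, at 47.2 and 35.7 RPKM. RAB3IP, an exchange factor for Rab proteins at primary cilia, was at 7.19 and 5.08 RPKM. GABARAPL1, an autophagosome protein of the ATG8 family, was at 20.2 RPKM with ATF3 and 15.1 in the control. TCEAL9, an X-linked gene of the TCEAL family, was among the more abundant of the set, at 96.99 and 72.76 RPKM. TMEM71, SYN3 and TMEM212 had ratios of 0.44, 0.40 and 0.39, and the interferon-induced gene IFI27 was at 13.3 and 9.82 RPKM. SCHIP1 (10.3 and 6.33 RPKM) overlaps a read-through gene, and HYPK shares 36.2% of its sequence with another gene, so both values are uncertain. For 4 more of the 30, the predicted or duplicated genes LOC102723728, TMEM183BP, GTF2H2C_2 and LOC107985355, no reference transcript was found with which shared sequence could be checked.

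**Figure D3:**
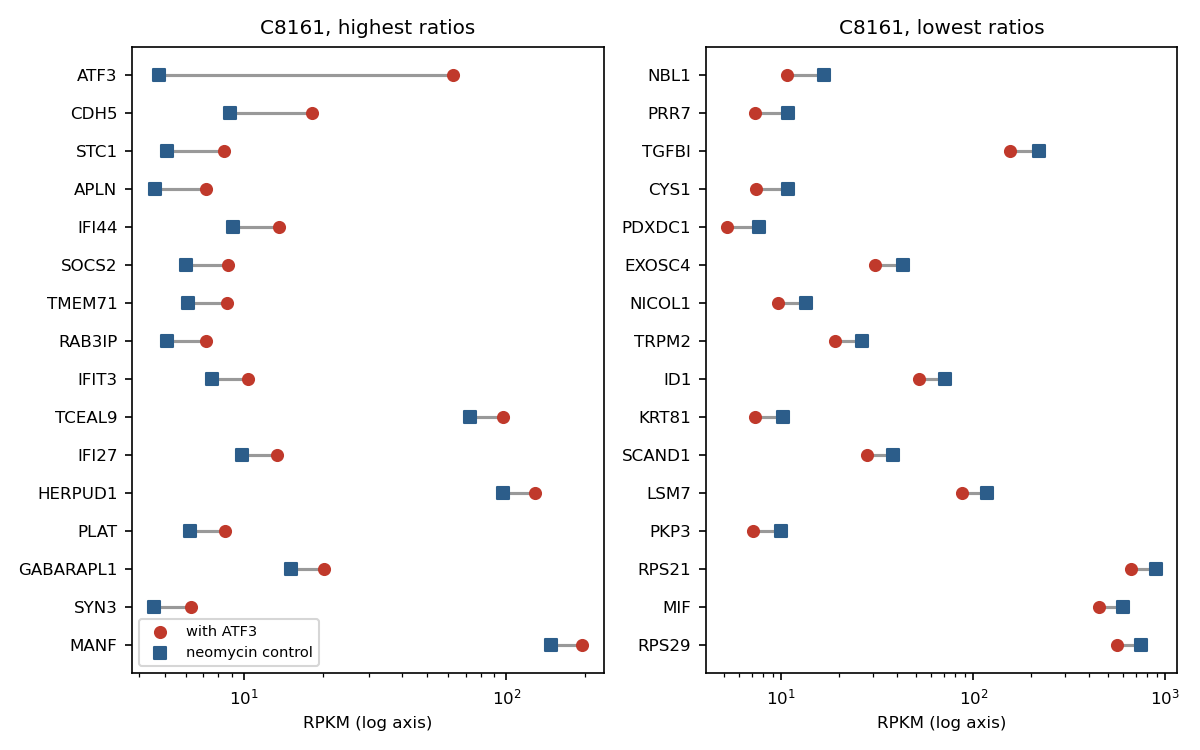
RPKM (log axis) with ATF3 (circles) and in the control (squares) for genes of highest ratio (left) and lowest ratio (right), from those with a mean of at least 5 RPKM; genes with no reference transcript, SCHIP1, HYPK and 1 gene not reported here are not drawn. ATF3 moves from 4.76 to 62.6 RPKM, whereas the pair of points of NBL1, with the lowest ratio, lies at 10.7 and 16.7.

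Among the 30 lowest ratios, which ran up to −0.38, were genes of BMP and TGF-beta signalling and of the cell surface. NBL1 (chromosome 1, 19643229 to 19658452), a secreted BMP antagonist, was at 10.7 RPKM with ATF3 and 16.7 in the control, a ratio of −0.61. Of the NBL1 sequence 14.8% is shared with other genes, so its value is less certain. TGFBI, a matrix protein first found as a TGF-beta-induced gene, was at 155.4 and 220.3 RPKM (−0.50), and ID1, an inhibitor of basic helix-loop-helix factors and a BMP target, at 51.9 and 70.9 RPKM (−0.44). The values with ATF3 were lower for all 3. TRPM2 (chromosome 21, 44350141 to 44442644), a calcium channel opened by oxidative stress, was at 19.1 RPKM with ATF3 and 26.3 in the control. AMIGO2, an adhesion molecule, was at 12.6 and 17.0 RPKM. SERPINB2, the plasminogen activator inhibitor of PAI-2 type, was at 8.13 and 10.95 RPKM, in the direction opposite to PLAT. The desmosomal protein PKP3 was at 7.14 and 9.98 RPKM. KRT81, a hair keratin, was at 7.26 and 10.2 RPKM, with 44.4% of its sequence shared with another gene.

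The 30 lowest also held abundant transcripts of basic cell machinery. MIF, a cytokine with tautomerase activity, was at 450.4 RPKM with ATF3 and 604.4 in the control. The ribosomal protein genes RPS21 (661.4 and 891.4 RPKM) and RPS29 (558.4 and 747.8 RPKM) stood with it, as did RPL18. LSM7, part of the ring that guides mRNA decay and U6 RNA, was at 86.8 and 117.9 RPKM. EXOSC4, a core subunit of the RNA exosome, was at 30.8 and 43.1 RPKM, NDUFS7 of respiratory complex I at 47.9 and 63.6, and MRPL41 of the mitochondrial ribosome at 68.3 and 89.8 RPKM. All of these were lower in the arm with ATF3. PAXX, a DNA end-joining factor, was at 24.9 and 33.5 RPKM, and NT5DC2 at 56.0 and 73.6 RPKM. The median GC content of the 30 lowest was 61.8%, against 47.6% for the 30 highest. After trends with GC content and length were removed, 23 of the 30 lowest were still at −0.25 or less, and all 26 of the 30 highest that have a reference transcript were still at 0.25 or more. MIF, 34.8% of whose sequence is shared with another gene, went from −0.42 to −0.23, PAXX from −0.42 to −0.24, NICOL1 from −0.45 to −0.18, MRPL41 from −0.39 to −0.16 and ZNHIT2 from −0.38 to −0.19, whereas TGFBI, RPS29, AMIGO2 and SERPINB2 kept ratios of −0.50, −0.47, −0.44 and −0.41. The trends used the longest transcript of each gene. For RPS29 that transcript had 7062 bases and 42.82% GC, and the ratio of RPS29 after removal rests on that choice. CYS1, PRR7, PDXDC1, SCAND1, MCRIP2, EVA1B, COMTD1, PUSL1, ZNF414 and INSC complete the set, with ratios from −0.52 to −0.38.

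Measured in RPKM and not as a ratio, the largest differences lay in the most abundant RNAs. HMGA1 (chromosome 6, 34236873 to 34246231), an architectural chromatin protein of embryonic and tumour cells, was at 1821 RPKM with ATF3 and 1517 in the control. TMSB10, which binds actin monomers, was at 2669 and 2455 RPKM, and the annexin gene ANXA2 at 2256 and 2106. HNRNPA2B1, an RNA-binding splicing factor, was at 563.0 and 455.2 RPKM. In the other direction GAPDH, the glycolytic enzyme often used for scaling, was at 5542 RPKM with ATF3 and 6273 in the control. ACTG1, cytoplasmic gamma-actin, was at 1305 and 1682 RPKM (ratio −0.37), and ACTB, its beta counterpart, at 2788 and 3011 RPKM (−0.11). The ferritin light chain gene FTL was at 5276 and 5625 RPKM, and the metallothionein MT2A at 2296 and 2525. Ribosomal proteins appeared on both sides: RPS6, RPS24 and RPL23 had ratios of 0.20, 0.24 and 0.19, and RPLP1, RPS10 and RPS13 had ratios of −0.35, −0.32 and −0.23. MTRNR2L2 (1508 and 1229 RPKM) and MTRNR2L8 are nuclear copies of mitochondrial ribosomal RNA, so their values are uncertain. NPM1 and PTMA, which have many processed pseudogenes, share 44.7% and 28.9% of their sequence with other genes.

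The proteins that pair with ATF3 were examined as a list of 19, of which 18 were compared. Above 0 lay 14 of them, with a median ratio of 0.09 against 0.007 for all genes, and none passed 0.25 in either direction. For this and every later list the shares over all genes are 52% above 0, 2.58% higher and 3.2% lower by 0.25. FOSL1, the AP-1 subunit FRA-1, was the most abundant, at 560.5 RPKM with ATF3 and 489.1 in the control. DDIT3, the stress factor CHOP, was at 53.3 and 45.6 RPKM. Both were higher with ATF3, while JUN (108.8 and 120.7 RPKM), JUNB (15.5 and 18.0) and CEBPB (26.9 and 31.9) had the lower value there. The summed level of the 18 was 1154.9 RPKM with ATF3 and 1063.7 in the control. Against this sum ATF3 itself went from 4.76 to 62.6 RPKM.

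Genes that earlier work on other cells reported as ATF3 targets lay on both sides of 0. Of 27 compared, 18 lay above 0 and the median was 0.08, with 4 higher and 2 lower at 0.25. IL6, the cytokine gene that ATF3 is known to repress in macrophages, was at 3.82 RPKM with ATF3 and 2.66 in the control. ID1, reported as repressed in epithelial cells, was lower as given above. CCND1, cyclin D, was level at 152.4 and 151.1 RPKM, ASNS, asparagine synthetase, was at 20.4 and 19.1 RPKM, and SLC7A11, the cystine transporter, at 12.9 and 12.2 RPKM.

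The kinase cascades that drive melanoma growth differed little at the RNA. Of 31 ERK pathway components compared, 19 lay above 0 and the median was 0.02, with 1 higher and none lower at 0.25. That gene was SOS1, the exchange factor that loads RAS with GTP, at 5.70 RPKM with ATF3 and 4.54 in the control. The receptors EGFR (47.1 and 46.2 RPKM) and MET (29.5 and 29.2 RPKM) had nearly the same values in both arms. Of 31 AKT and mTOR components 14 lay above 0, with a median of −0.01. PIK3CA, a catalytic subunit of the kinase upstream of AKT, was at 11.7 and 10.9 RPKM. The 2 genes past −0.25 were EIF4EBP1, a translation repressor that mTOR switches off, at 58.0 RPKM with ATF3 and 72.4 in the control, and MLST8, an mTOR subunit, at 25.5 and 31.3 RPKM. DDIT4, a stress-induced brake on mTOR, was on the other side at 27.6 and 23.1 RPKM. INPP4B, a phosphatase of phosphoinositides, was at 11.7 and 14.01 RPKM.

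Interferon-induced effectors had the highest median of the 46 lists. Interferon genes are switched on when the STAT and IRF9 complex binds the element ISRE in their promoters, and their products block viral RNA and protein synthesis. Of 26 effectors compared, 22 lay above 0 and 12 were higher by 0.25 or more, none lower, with a median of 0.22, or 0.23 with the GC and length trends removed. Over all genes 52% lay above 0 and 2.58% were higher by 0.25. The summed level of the 26 effectors differed less, at 774.3 RPKM with ATF3 and 733.2 in the control. OASL, an antiviral relative of the oligoadenylate synthetases, was at 3.94 RPKM with ATF3 and 2.38 in the control. IFI44 was at 13.6 and 9.08 RPKM, and IFIT1, which binds foreign RNA ends, at 3.12 and 1.86 RPKM. The arm with ATF3 was higher for these 3, for IFIT2 (3.41 and 2.22 RPKM) and for IFIT3, while IFIT5 of the same family was level at 5.12 and 5.22 RPKM. The machinery upstream was less one-sided. Of 26 sensors and signalling genes 18 lay above 0, with a median of 0.04 and 2 past 0.25. Those 2 were IRF9 itself, at 8.23 RPKM with ATF3 and 6.06 in the control, and IRF2, a relative that competes for ISRE sites, at 10.99 and 8.87 RPKM. The cytosolic RNA sensors RIGI (4.52 and 3.69 RPKM) and IFIH1 (2.35 and 1.87 RPKM) had ratios of 0.23 and 0.22, whereas the DNA sensor gene CGAS was at 17.4 and 18.8 RPKM. In A2058 the effector list had a median of 0.05, with 17 of 25 above 0.

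The promoters of IFI44 and IFIT1 are shown because both genes were higher with ATF3 and both hold the letters of the ISRE. They are given from RefSeq on GRCh38.p14, from 250 bases before to 50 bases after the start, for chr1:78649539-78649838 (IFI44) and chr10:89392373-89392672 (IFIT1), both on the plus strand, with matches to the ISRE (GAAA, 2 bases of any kind, GAAA) or its reverse complement in capitals.
IFI44: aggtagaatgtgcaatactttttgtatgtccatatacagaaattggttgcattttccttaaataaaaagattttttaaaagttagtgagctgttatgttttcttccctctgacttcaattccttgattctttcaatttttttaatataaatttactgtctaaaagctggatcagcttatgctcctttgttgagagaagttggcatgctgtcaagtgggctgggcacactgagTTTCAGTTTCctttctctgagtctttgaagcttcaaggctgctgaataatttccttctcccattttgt
IFIT1: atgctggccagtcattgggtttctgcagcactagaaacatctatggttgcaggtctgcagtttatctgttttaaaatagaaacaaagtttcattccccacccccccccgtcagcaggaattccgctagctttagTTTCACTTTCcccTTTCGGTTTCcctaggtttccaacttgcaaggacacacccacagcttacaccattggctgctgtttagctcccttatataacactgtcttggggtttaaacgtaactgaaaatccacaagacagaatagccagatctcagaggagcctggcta
IFI44 has 1 match, which begins 18 bases before the start, and IFIT1 has 2, at 116 and 103 bases before it.

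Genes of protein folding and export in the ER also lay mostly on the higher side. Over all genes 52% lay above 0, 2.58% were higher and 3.2% lower by 0.25. The ER folds secreted proteins with chaperones and disulfide isomerases, exports them in COPII vesicles, and sends failures back to the proteasome, and the sensor ATF6 and the factor XBP1 raise these genes when folding lags. Among genes of ER-associated degradation 20 of 28 lay above 0, with a median of 0.10 (0.06 after trend removal) and 3 past 0.25. They were HERPUD1, which gathers the degradation complex (128.6 RPKM with ATF3 and 97.1 in the control), its scaffold SEL1L (30.9 and 25.5) and the ubiquitin ligase SYVN1 (24.4 and 20.4). Of 28 disulfide and proline isomerases and their helpers, 18 lay above 0 with a median of 0.06 (0.09 with the trends removed). The co-chaperone DNAJB9 was at 7.82 and 6.03 RPKM, the chaperone HYOU1 at 181.6 and 146.0, and the oxidase ERO1B at 3.83 and 2.97. The abundant isomerase P4HB was nearly level at 450.1 and 440.3 RPKM. Of 23 translocon and signal peptide genes 18 lay above 0, with a median of 0.07 (0.05 with the trends removed). The channel subunit SEC61A1 was level at 172.3 and 172.4 RPKM. Its partner SEC63 was at 40.1 and 34.1, and the signal peptidase subunit SEC11C at 38.0 and 29.9 RPKM. Of 28 COPI and COPII coat genes 22 lay above 0, with a median of 0.07 (0.04 with the trends removed), and SEC24D, a cargo adaptor, was at 20.0 RPKM with ATF3 and 16.9 in the control. COPE was the single member past −0.25, at 112.7 and 138.5 RPKM. N-glycosylation genes were nearer to level, with 18 of 30 above 0 and a median of 0.02, and with the lectin chaperone CANX at 319.1 and 267.6 RPKM.

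The element ERSE, the site on which ATF6 acts together with the factor NFY, is shown here in the promoter of HSPA5, the gene of the chaperone BiP, which was at 841.5 RPKM with ATF3 and 655.3 in the control. Beside it stands the promoter of PPP1R15A, the stress-induced phosphatase subunit GADD34 (100.9 and 76.7 RPKM), which holds a full CRE, the palindrome to which ATF and CREB proteins bind. They are from RefSeq, GRCh38.p14, chr9:125241294-125241593 on the minus strand (HSPA5) and chr19:48872171-48872470 on the plus strand (PPP1R15A), with the ERSE and the CRE in capitals.
HSPA5: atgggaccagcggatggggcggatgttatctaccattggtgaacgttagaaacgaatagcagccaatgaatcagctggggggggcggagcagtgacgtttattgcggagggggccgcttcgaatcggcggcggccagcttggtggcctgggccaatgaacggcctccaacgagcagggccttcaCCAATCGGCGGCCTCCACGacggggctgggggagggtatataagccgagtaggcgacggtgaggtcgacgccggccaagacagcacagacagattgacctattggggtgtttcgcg
PPP1R15A: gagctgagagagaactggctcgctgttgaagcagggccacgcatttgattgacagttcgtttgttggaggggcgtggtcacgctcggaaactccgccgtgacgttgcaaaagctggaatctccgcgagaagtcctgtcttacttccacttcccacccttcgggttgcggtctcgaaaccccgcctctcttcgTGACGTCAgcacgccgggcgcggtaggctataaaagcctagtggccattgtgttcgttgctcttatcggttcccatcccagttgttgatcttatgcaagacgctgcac
The ERSE of HSPA5 begins 66 bases and the CRE of PPP1R15A 58 bases before the start.

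Promoter windows of this kind were found for 9014 of the compared genes (82.4%), of which 207 were higher and 276 lower by 0.25. A gene was counted when any of its windows held the motif on either strand. ERSE (CCAAT and CCACG with 9 bases of any kind between them) was in 16 of the 9014 genes (0.178%), in 4 of the 207 higher genes (1.93%) and in none of the lower ones. The 4 were HSPA5, HSP90B1, ERO1B and CANX. The median ratio of all 16 was 0.09, with 12 above 0: CALR was at 1019 RPKM with ATF3 and 913 in the control, PDIA6 at 286.1 and 262.0, XBP1 at 60.5 and 57.9, CRELD2 at 72.3 and 72.8, and ALG12 at 14.7 and 16.7 RPKM. ISRE was in 6.76% of the higher, 3.62% of the lower and 3.86% of all genes. Of the motifs to which ATF3 itself is known to bind, CRE (TGACGTCA) was in 2.9% of the higher, 4.35% of the lower and 3.88% of all genes, and AP-1 (TGACTCA) in 6.76%, 6.16% and 4.85%. CARE (TGATGNAA), the site of ATF4 with CEBP proteins, was in 3.38%, 2.17% and 2.74%, and SRE (ATCACNCCA), that of the sterol factor SREBP, in 1.45%, 0.362% and 0.533%. The E-box CACGTG was in 13.5%, 19.2% and 13.2%, and the GC box GGGCGG in 72%, 82.6% and 79%. These are matches of letters in a short window, and several rest on fewer than 10 genes.

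Mitochondrial and biosynthetic lists lay on the lower side. Complex I, which feeds electrons from NADH into the respiratory chain, had the lowest median of the 46 lists, −0.12, with 10 of 37 subunits above 0, 5 past −0.25 and none past 0.25. NDUFB7 was at 83.9 RPKM with ATF3 and 109.1 in the control, and NDUFS8 at 71.8 and 90.7. With the GC and length trends removed the median was −0.05 and 2 subunits were past −0.25. ATP synthase and complexes III and IV had 7 of 36 above 0 and a median of −0.08 (−0.06 after removal), mitochondrial ribosomal proteins 20 of 77 and −0.09 (−0.04), and the mitochondrial import machinery 6 of 24 and −0.09 (−0.05). In A2058 the medians of these 4 lists, in the same order, were 0.02, 0.03, 0.03 and 0.01. Purine and pyrimidine synthesis had 5 of 21 genes above 0 and a median of −0.08, which was −0.10 after removal. PFAS of the purine pathway was at 18.5 and 21.97 RPKM, CAD, which starts pyrimidine synthesis, at 26.9 and 30.6, and DHODH at 6.83 and 8.22 RPKM. PAICS, at 125.4 and 122.7 RPKM, lay on the other side. None of the 21 passed 0.25 in either direction. Tubulins had 2 of 16 above 0 and a median of −0.07, with TUBB4B at 479.6 RPKM with ATF3 and 546.3 in the control. TUBA1A was 1 of the 2 above 0, at 28.8 and 24.8 RPKM.

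Lists of protein synthesis and folding in the cytosol lay close to 0. Here the median with the trends removed follows in each bracket. Cytosolic translation factors had a median of −0.02 (25 of 62 above 0; −0.04), ribosome biogenesis −0.04 (11 of 32; −0.05), the proteasome −0.02 (15 of 37; −0.05), the TRiC chaperonin with prefoldin −0.04 (5 of 14; −0.05), and cytosolic aminoacyl-tRNA synthetases 0.02 (13 of 20; 0.007). Within ribosome biogenesis the nucleolar proteins parted: NCL, nucleolin, was at 584.3 RPKM with ATF3 and 509.1 in the control, whereas FBL, fibrillarin, was at 188.2 and 221.2. Among translation factors 1 gene was higher and 3 were lower by 0.25. The higher one was EIF2AK2, which encodes the interferon-induced kinase PKR, at 14.8 and 12.1 RPKM. The lower ones were EIF3K (142.1 and 175.8 RPKM), EIF4EBP1, given above, and EIF3CL (19.2 and 27.6 RPKM), which shares 98.7% of its sequence with another gene. Amino acid transporters had a median of 0.07 with 12 of 18 above 0, and serine, glycine and one-carbon enzymes one of −0.03 with 8 of 18. PYCR1, the proline synthesis enzyme, was at 16.9 and 21.4 RPKM, while PSAT1 of serine synthesis was at 76.0 and 67.1.

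Most nuclear RNA and chromatin lists lay on the higher side by small amounts, several of them smaller with the GC and length trends removed. The nuclear pore list lay slightly on the lower side, and the numbered zinc finger genes were level. SR and hnRNP splicing factors had 21 of 32 above 0, 3 past 0.25 and a median of 0.09 (0.04 after removal). HNRNPA3 was at 153.9 RPKM with ATF3 and 119.5 in the control, and HNRNPH2 at 7.5 and 5.73. Cohesin, condensin and SMC genes had 16 of 22 above 0 and a median of 0.08 (0.03 after removal), with SMC2 at 14.4 and 12.3 RPKM and NCAPH2 on the other side at 36.8 and 46.8. mRNA decay factors had 21 of 28 above 0 and a median of 0.06 (0.02 after removal). ZFP36, the AU-rich element binding protein that shortens cytokine mRNAs, was at 9.42 and 7.76 RPKM, and its relative ZFP36L1 at 140.5 and 119.3. Both had the higher value with ATF3, while UPF1 of nonsense-mediated decay was at 25.8 and 30.2 RPKM. Histone lysine methyltransferases and demethylases had a median of 0.04 (0.03 after removal) with 24 of 40 above 0, kinesins one of 0.05 with 18 of 28, homologous recombination genes one of 0.02 (−0.005 after removal) with 18 of 31, and the nuclear pore one of −0.02 (−0.03) with 8 of 21. The 300 numbered zinc finger genes compared had a median of 0.004 (−0.002 after removal), close to that of all genes.

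**Figure D4:**
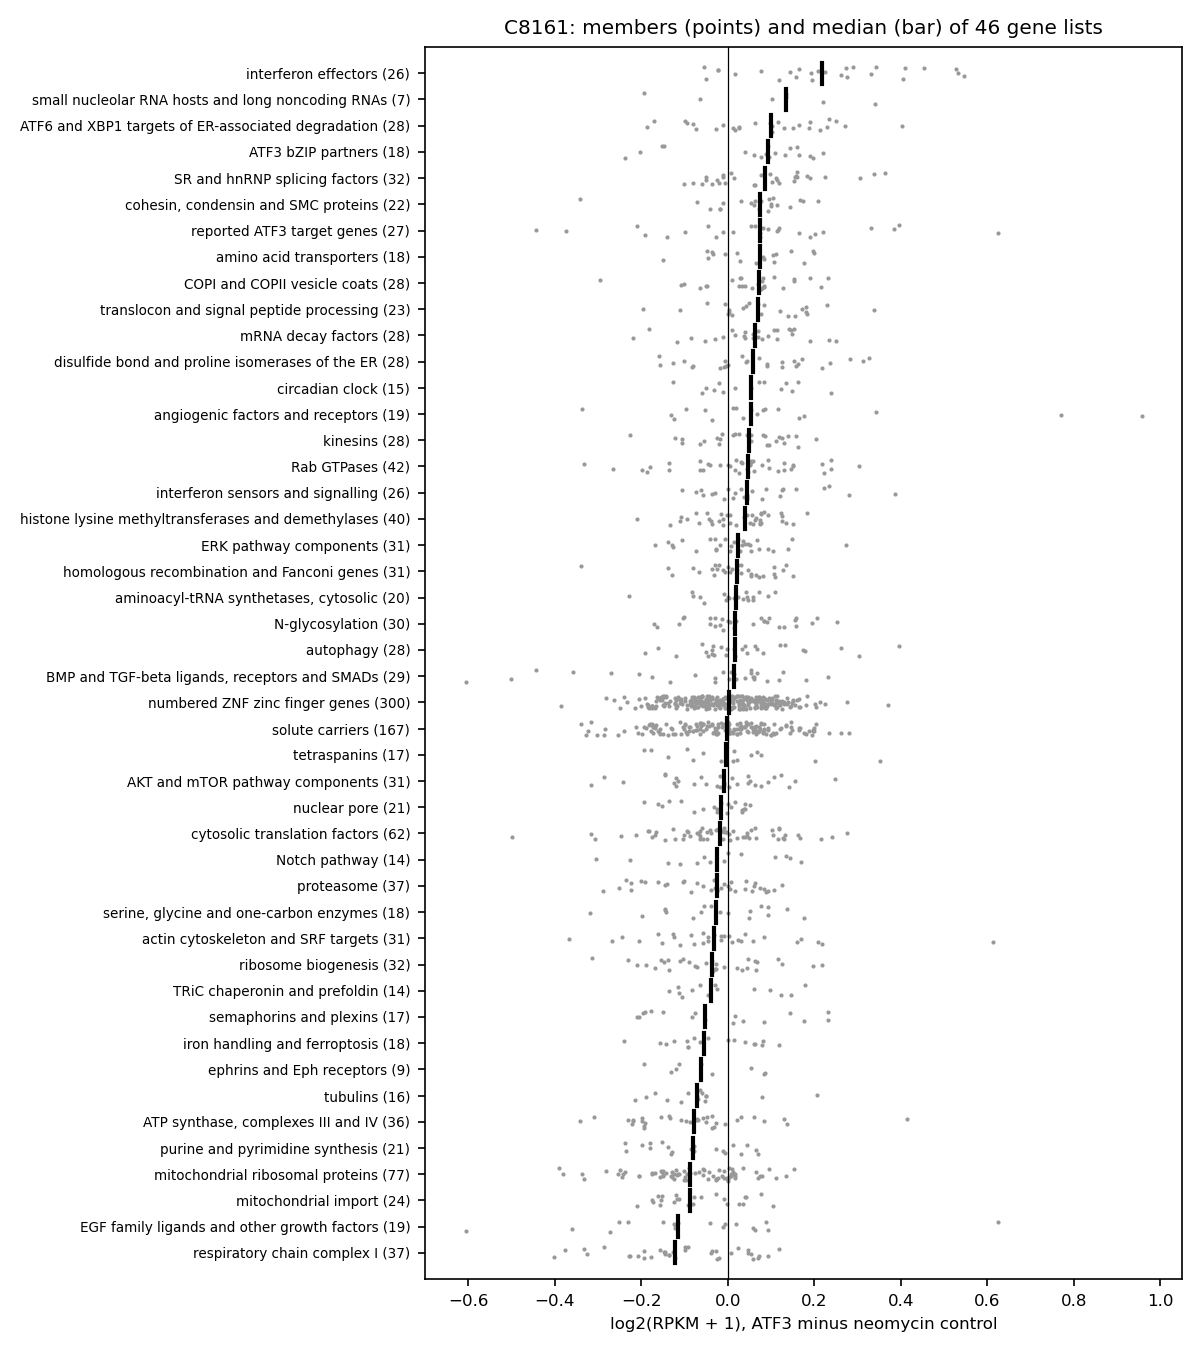
Ratios of the members of each of the 46 gene lists (points, spread vertically at random) and the list median (bar), ordered by median, with the number of members compared in brackets. Interferon effectors lie highest at 0.22 and respiratory chain complex I lowest at −0.12.

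Genes for signals between cells lay on both sides. Among 19 angiogenic factors and receptors 13 lay above 0, 3 were higher and 1 was lower by 0.25, and the median was 0.05. The 3 were CDH5, EDN1 and ERG, an endothelial transcription factor at 1.36 RPKM with ATF3 and 0.86 in the control, and the last 2 were named after their values were seen. ERG passed the minimum of 1 RPKM only with ATF3, so it could only be counted on the higher side. VEGFA, the main vessel growth factor, was at 12.3 and 10.8 RPKM, and its coreceptor NRP2 at 48.5 and 42.8. ANGPTL4, a secreted lipase inhibitor, had the lower value with ATF3, 2.58 and 3.52 RPKM. Of the other endothelial markers, TIE1, ROBO4 and EGFL7 were well expressed with ratios of −0.10, −0.17 and −0.17, while PECAM1 (0.20 and 0.11 RPKM), KDR (0.34 and 0.25) and VWF (0.04 and 0.02) were near 0 in both arms. EGF family ligands and other growth factors had the second lowest list median, −0.11, with 6 of 19 above 0, 1 past 0.25 and 4 past −0.25. HBEGF, an EGF receptor ligand, was at 16.3 RPKM with ATF3 and 17.7 in the control, and LIF, a cytokine related to IL6, at 18.5 and 22.5. GDF15, the stress hormone of appetite, was at 4.45 and 5.99 RPKM, opposite in direction to STC1. Without a minimum level the list median was −0.018, and in A2058 it was 0.07.

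The BMP and TGF-beta list had a median of 0.01 (0.002 with the trends removed), with 17 of 29 above 0 and none past 0.25, but 5 past −0.25. The ligand TGFB1 (54.7 RPKM with ATF3 and 54.0 in the control) and the receptors TGFBR1 (4.07 and 3.84) and TGFBR2 (58.2 and 61.3) differed by less than 0.1. The 5 were NBL1 and 4 genes that the pathway is known to induce. These 4 were TGFBI, ID1, ID3 (36.0 and 46.4 RPKM) and ID2, the last named after its value was seen, at 1.67 and 2.22 RPKM. NBL1, TGFBI and ID1 were also among the lowest ratios given above, and the list was chosen with earlier results of these data known. The count past −0.25 is therefore not separate from those ratios, and a shift of the pathway was not tested. Notch genes had a median of −0.02 with 5 of 14 above 0 (0.035 with the trends removed and 0.03 with a minimum of 5 RPKM), and the receptor gene NOTCH2 was at 31.2 and 32.5 RPKM. Semaphorins and plexins had a median of −0.05 and ephrins and Eph receptors one of −0.06 (−0.03 with the trends removed), with EPHA2 at 91.3 and 100.2 RPKM. The sign of both medians depended on the setting: without a minimum level they were 0.016 and 0.007, and for semaphorins and plexins it was 0.021 with the GC and length trends removed.

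Membrane traffic, turnover and the cytoskeleton held single genes that stood apart from their lists. Autophagy genes had a median of 0.02 (0.03 with the trends removed) with 15 of 28 above 0, and 3 were past 0.25: GABARAPL1, the receptor gene OPTN (33.2 RPKM with ATF3 and 26.7 in the control) and WIPI1 (10.7 and 8.79), while the initiating kinase ULK1 was at 4.73 and 4.79. Among tetraspanins, membrane organisers with a list median of −0.004, CD9 was at 138.0 and 108.0 RPKM and CD63 at 663.0 and 576.4, but CD81 at 151.0 and 172.9. The values with ATF3 were thus higher for 2 of these 3 and lower for the other. Rab GTPases had a median of 0.05 (0.02 with the trends removed), with the endosomal RAB5B at 22.4 and 18.0 RPKM and RAB20 at 4.31 and 5.69. In the actin and SRF list, with 12 of 31 above 0 and a median of −0.03 that turned to 0.01 with the trends removed, the sarcomeric gene MYPN had a ratio of 0.61 and FHL2, an SRF coregulator, was at 85.7 RPKM with ATF3 and 103.4 in the control. Iron handling had a median of −0.06, the circadian clock 0.05 (0.02 with the trends removed), with the repressor NR1D1 at 7.12 and 5.88 RPKM, and 167 solute carriers −0.001. Only 7 long noncoding and small nucleolar host RNAs were compared, with a median of 0.13 that was 0.014 without a minimum level.

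The ratios varied with base composition and length across the genes, which were cut into 10 classes of equal size. In the class of lowest GC content 28 genes were higher and 1 lower by 0.25, with a median ratio of 0.06. In the class of highest GC content 12 were higher and 180 lower (16.6% of that class), with a median of −0.12. The 349 lower genes with a reference transcript had a median GC content of 61.2% and a median transcript length of 2257 bases, the 266 higher genes 46.5% and 3118 bases, and all genes 47.9% and 3711 bases. Chromosome medians ran from −0.06 on chromosome 19, where the median GC content was 59%, to 0.03 on chromosome 5, and from −0.01 to 0.02 after removal of both trends. With the trends removed 336 genes were higher and 117 lower by 0.25, of which 207 and 92 were also past it before. The larger number of lower than higher genes therefore held only before removal. Whether the trends come from the libraries or from the cells was not tested.

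**Figure D5:**
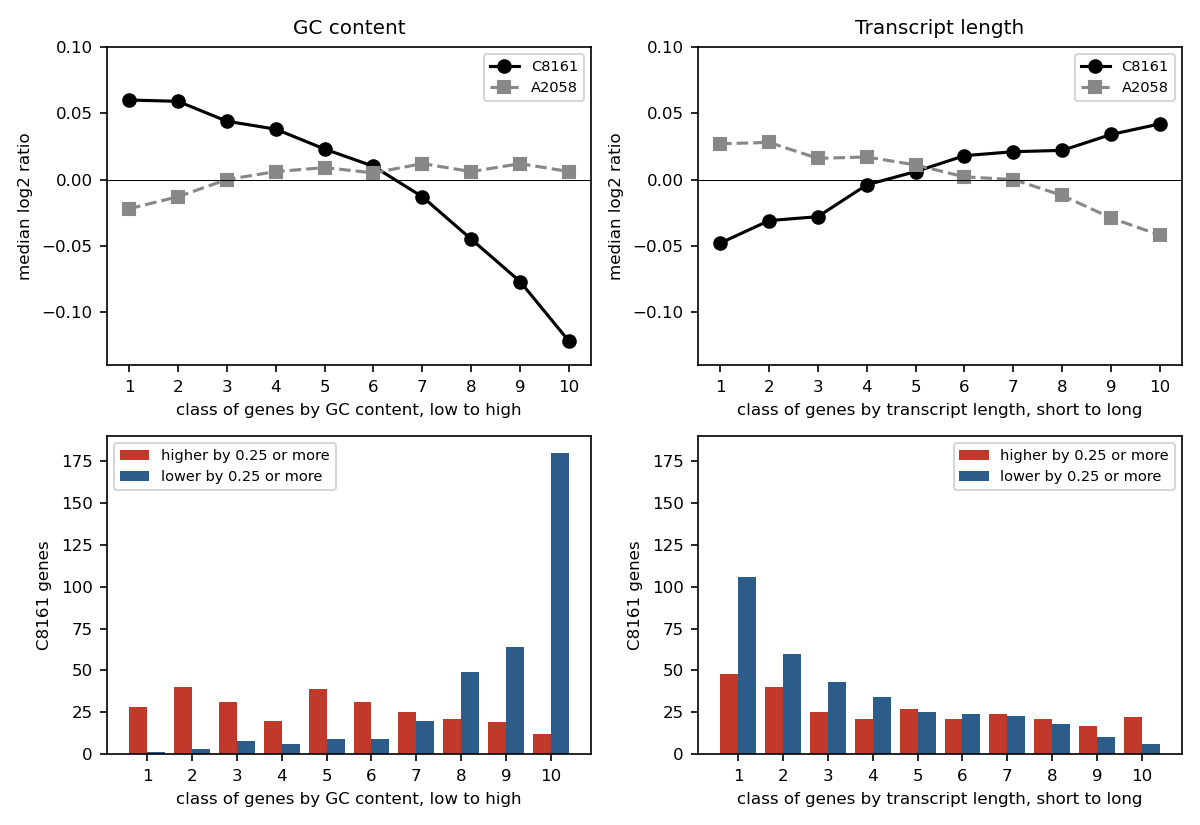
Top: median ratio in 10 equal classes of genes ordered by GC content (left) and transcript length (right) for C8161 and A2058. Bottom: number of C8161 genes higher (red) or lower (blue) by 0.25 or more in each class; 180 lower genes fall in the class of highest GC content and 1 in the lowest.

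A2058 offers a separate comparison, with no library in common, but with 1 library per arm and a lower ATF3 level. Of the 282 genes higher in C8161, 240 were also compared in A2058, where 139 had a ratio above 0, 20 were higher by 0.25 and 6 were lower by 0.25. In A2058 as a whole 51.3% of genes lay above 0, 2.34% were higher by 0.25 and 1.85% lower. Of the 350 genes lower in C8161, 325 were compared, 146 lay below 0 in A2058, 5 were lower and 13 higher by 0.25. The 5 included, also named after their values were seen, FAM86B2, MDP1 and CHURC1-FNTB, with 87.7%, 73.8% and 97.2% of their sequence shared. Of the 30 highest C8161 ratios 21 lay above 0 in A2058, and of the 30 lowest 13 lay below it, with 25 and 27 of them at 1 RPKM or more there. Genes higher by 0.25 in both lines, named for that after their values were seen, included the cell cycle inhibitor CDKN1A (18.0 RPKM with ATF3 and 14.8 in the control in A2058), BCL3, an IκB-like coactivator (8.56 and 6.62 RPKM in C8161, 7.52 and 5.67 in A2058), the proton-sensing receptor GPR4 (19.9 and 16.1 in C8161, 2.01 and 1.46 in A2058), the coagulation inhibitor TFPI (24.9 and 20.6, then 5.46 and 4.25) and ZFP36 (6.02 and 4.63 in A2058). The same held for STC1, at 1.48 and 0.90 RPKM in A2058, and IFIT3. GDNF, the neurotrophic factor, was lower in both, at 4.79 and 5.91 RPKM in C8161 and at 0.98 and 1.39 in A2058. In A2058 STC1 passed the minimum of 1 RPKM only with ATF3 and GDNF only in the control. The direction of these genes there was therefore tied to how they entered the comparison, at values near the minimum.

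Some genes had ratios of opposite sign in the lines. HERPUD1 was at 24.4 RPKM with ATF3 and 26.2 in the control in A2058, and HSPA5 at 177.2 and 183.2, in both cases lower with ATF3 by a small amount. ACYP1, an acylphosphatase, was at 9.90 and 7.47 RPKM in C8161 and at 14.7 and 16.7 in A2058, and PSIP1, a chromatin reader, at 48.7 and 37.5 and at 38.0 and 41.3. In the other direction SERPINB2 was at 3.03 and 1.95 RPKM and TGFBI at 1.75 and 1.21 in A2058, and TINAGL1, a matricellular protein, was at 67.9 and 76.9 RPKM in C8161 and at 6.27 and 3.91 in A2058. SVBP and SHTN1 also had higher ratios in C8161, and MAP1LC3B2 had a lower one. MAP1LC3B2 is known as a near copy of another gene, though 0.0% of its sequence was shared by the measure used here. These differences between lines were not tested, since neither line has replicate values.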

How the data were processed

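RNA-seq of total RNA was deposited as 1 table of RPKM values made by the authors, and the submitters' processing notes name Bowtie2, RSEM and the build hg38 with no version. The annotation, strand and filters behind it were not given in the sources used here, and whether a combined C8161 column is a mean or comes from pooled reads is not stated. Reads of overlapping, antisense or near-identical genes may be split between them. The depth of the columns is unknown.

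Values were used as deposited. Ratios are log2(RPKM + 1) with ATF3 minus control, over genes at 1 RPKM or more in either column, in Python 3.11.15 with pandas 2.3.3. The pseudocount understates differences of low genes. The limma fits, blocked fits and exact permutation tests planned for values per library could not be run on 1 combined column per arm, and sizes of 0.25 and 0.5 replaced them. The members and the 46 gene lists were chosen with earlier results of these data known. GC content, length and sequence shared with other genes (stretches of 50 bases) came from the longest GENCODE 29 transcript of each gene, available for 99.3% of compared genes. Trends were removed by lowess (statsmodels 0.14.6, span 0.3), tested on simulated data. Symbols (18156 of 18478 identifiers) and promoters came from RefSeq. Named genes were ATF3, the 30 highest and 30 lowest ratios and the 15 largest differences each way in RPKM where the mean reached 5 RPKM, in each list the 4 members of largest size with a mean from 2 RPKM and any of the first 6, and, among the 7041 genes with a mean of 5 RPKM in both lines, the 5 each way that differed most between them. Others are named as chosen after their values were seen, and 2 genes within the rule are not reported here. Alternatives were a pseudocount of 0.1, no minimum or one of 5 RPKM, quantile normalization, trend removal, leaving out shared genes, and a window of 150 bases.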

Additional observations from a re-analysis of the deposited data

Results flagged for a closer look

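Of the named genes with a mean of at least 5 RPKM in each line, 2 had ratios past 0.25 in opposite directions in the lines, and the difference was not tested. NBL1, the BMP antagonist, had a ratio of −0.61 in C8161 (10.7 RPKM with ATF3 and 16.7 in the control) and of 0.28 in A2058 (24.97 and 20.39 RPKM). KRT81, the hair keratin, had a ratio of −0.44 in C8161 (7.26 and 10.2 RPKM) and of 0.28 in A2058 (13.7 and 11.1 RPKM). NBL1 and KRT81 share 14.8% and 44.4% of their sequence with other genes. Another 5 named genes had opposite ratios past 0.25 with an A2058 mean under 5 RPKM, also untested. They were TGFBI (−0.50 in C8161 and 0.32 in A2058), SERPINB2 (−0.39 and 0.45), CYS1 (−0.50 and 0.32), SCHIP1 (0.63 and −0.26) and TMEM183BP (0.60 and −1.13). In A2058 CYS1 (0.67 RPKM with ATF3 and 0.34 in the control) and SCHIP1 (0.20 and 0.44) lay under the minimum of 1 RPKM. TMEM183BP (0.77 and 2.87 RPKM) passed it there only in the control, so its direction was tied to how it entered.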

How the results depend on the processing

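No paired analysis was possible because the table gives 1 combined column per C8161 arm, and for the same reason no library could be left out. With a pseudocount of 0.1, 475 genes were higher and 558 lower by 0.25, and 46 and 27 by 0.5. With GC and length trends removed 117 were lower by 0.25 and 6 by 0.5. With a minimum of 5 RPKM 12 were higher and 6 lower by 0.5, and without shared, read-through or unnamed genes 6 were lower by 0.5. List medians without a minimum were 0.159 for interferon effectors, 0.014 for noncoding RNAs, −0.018 for growth factors, 0.016 for semaphorins and plexins and 0.007 for ephrins, the last 2 with the sign turned. With trends removed they were −0.054 for complex I, 0.035 for Notch and 0.021, again with the sign turned, for semaphorins and plexins. With a minimum of 5 RPKM they were −0.15 for semaphorins and plexins and 0.03 for Notch, whose sign turned under both settings, and quantile normalization gave 0.0 for iron handling. The other 310 list medians tried moved by less than 0.05, though 8 of them, in 5 lists near 0, changed sign: numbered zinc fingers, nuclear pore, homologous recombination, actin and SRF, and BMP and TGF-beta. The causes were not tested.

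Promoter shares rest on few genes: 20 were higher and 10 lower by 0.5, and not all of them had a promoter window. Over all genes CRE was in 3.88%, AP-1 in 4.85%, CARE in 2.74% and ISRE in 3.86%. The E-box was in 13.2% of all genes and the GC box in 79%. At a size of 0.5, higher genes held CRE, AP-1, ERSE, SRE and the E-box in 0%, CARE in 8.33%, ISRE in 33.3% and the GC box in 41.7%. The only higher gene with CARE at this size was ATF3 itself, the introduced gene. Lower genes held CRE, CARE, ISRE and SRE in 0%, AP-1 and the E-box in 28.6% and the GC box in 71.4%. In the 150 bases before the start AP-1 was in 3.38% of higher and 3.26% of lower genes, and SRE, the E-box and the GC box in 0%, 14.5% and 76.4% of lower genes. The shares over all genes given above are for the window of 300 bases, so those of the shorter window cannot be set against them. With trends removed lower genes held SRE in 0% and the GC box in 67.0%, against 78.8% of higher genes.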
